A study of Mus musculus with 17 samples.

Results

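RNA of 10 genes for plasma proteins that hepatocytes secrete (Alb, Afp, Apoa1, Apoa2, Ttr, Serpina1b, Ambp, Itih2, Fgb and Fgg) was followed in flow-sorted mouse common myeloid progenitors, cells that give rise to the myeloid blood lineages. The 10 were taken by name, as a measure of liver-cell RNA in the sorted fraction, out of 24416 genes in the count files, and each was represented there by 1 transcript. The 17 libraries fell into 7 groups. From fetal liver came 3 libraries labelled Lin28b knockout (numbered 3, 6 and 8), 1 library of an inducible let-7 line (numbered 1) and 3 wild-type libraries (1, 4 and 5). From adult bone marrow came 3 let-7b/c knockout libraries (1, 2 and 3), 2 libraries of an inducible LIN28B line with vavcre (4 and 6), 2 of inducible LIN28B without vavcre (1 and 5) and 3 wild-type libraries (2, 5 and 6). The strain was albino black 6 for the let-7b/c knockout and C57BL/6J for every other group, and a doxycycline treatment is given for every sample, controls included. The design text describes vavcre as limiting induction to blood-forming cells; the driver of the other inducible lines, exact ages and any pooling of animals are not stated in the labels.

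Hepatocytes make most proteins of blood plasma. The fetal liver is also the main site of blood formation before birth, so progenitors and hepatocytes lie side by side in that tissue, whereas adult marrow holds no hepatocytes. Albumin (Alb) is the main carrier protein of plasma, and alpha-fetoprotein (Afp) is its relative, made in the fetus and switched off in liver after birth. These genes are read from promoters that bind the liver factors HNF1, HNF4 and C/EBP, of which C/EBP proteins also act in myeloid cells.

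The promoters of 9 of the 10 genes were present in the RefSeq promoter table for GRCm38.p6, all but that of Ttr, with windows of 300 bases (250 before and 50 after the annotated start). An HNF1 core site, searched as GTTAAT on both strands, lay in 4 of the 9 (Alb, Afp, Serpina1b and Fgb), against 7.1% of all 32851 windows of the same length in the table. A C/EBP match, TTGCNNAA, lay in 6 of the 9 (Alb, Afp, Apoa2, Serpina1b, Itih2 and Fgb), against 10.8% of all windows, and a match to part of the HNF4 site, GGNCAAAG, lay in 2 (Alb and Afp), against 5.62%. No match overlapped another. The 4 promoters with the core site are shown from 120 bases before to 20 after the start, each on the strand of its gene. They lie at chr5:90460750-90460889 (plus strand) for Alb, chr5:90490594-90490733 (plus) for Afp, chr12:103738170-103738309 (minus) for Serpina1b and chr3:83049844-83049983 (minus) for Fgb, and the capitals mark the core site, in Fgb as its reverse complement. Such matches describe the sequence and were not tested as binding sites.

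Alb: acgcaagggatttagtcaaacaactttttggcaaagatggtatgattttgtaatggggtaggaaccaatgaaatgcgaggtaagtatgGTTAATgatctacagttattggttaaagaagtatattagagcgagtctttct
Afp: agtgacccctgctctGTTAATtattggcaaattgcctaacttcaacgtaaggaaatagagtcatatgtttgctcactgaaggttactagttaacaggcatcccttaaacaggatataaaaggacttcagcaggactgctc
Serpina1b: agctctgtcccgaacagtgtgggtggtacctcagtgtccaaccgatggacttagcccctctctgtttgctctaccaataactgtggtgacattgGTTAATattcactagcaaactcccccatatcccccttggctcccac
Fgb: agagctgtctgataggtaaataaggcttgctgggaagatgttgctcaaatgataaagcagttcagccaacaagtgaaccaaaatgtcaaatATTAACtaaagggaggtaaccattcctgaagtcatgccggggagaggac

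Library sizes ran from 14957111 to 28165554 counts on transcripts. The libraries labelled Lin28b knockout stood apart from the others. Reads placed at several sites made up 25.65% to 28.88% of theirs, against 10.26% to 14.05% in the other 14 libraries, and Lin28b itself was at 88.9 ± 9.85 CPM in them, against 102.4 ± 15.9 CPM in wild-type fetal liver (SD, n = 3 each), so the label was not borne out by a lower level. The ranges overlapped, at 77.63 to 95.86 CPM and 90.4 to 120 CPM. CPM is a count divided by the library's total and scaled to 1e6. A sum over a whole transcript does not reveal a missing exon. The inducible let-7 library was the deepest and had the fewest genes detected, 10144, against 12079 to 15644 in the others. Myeloid progenitor markers were present in every group: Mpo, the peroxidase of granules, averaged 3450 CPM in the labelled knockout, 5345 CPM in wild-type fetal liver and 5871 CPM or more in each other group. Kit, Cebpa and Runx1, with several transcripts each, were at 0 in all 17 libraries, and a read that matches several transcripts of a gene is counted as ambiguous, for none of them, in such tables. Whether replicate libraries derive from different animals is not stated, so the p-values reflect library-to-library spread, some of which may be technical.

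The question put to the 10 genes was how much liver-secretory RNA each sorted fraction held. Their summed level was 296.9, 636.3 and 1170 CPM in labelled Lin28b knockout libraries 3, 6 and 8, which is 0.0297%, 0.0636% and 0.117% of all counts. In the inducible let-7 library it was 0.213 CPM, resting on 6 counts, and in wild-type fetal liver libraries 1, 4 and 5 it was 4.501, 5.565 and 3.296 CPM. In marrow it was 5.133, 4.468 and 6.536 CPM in the let-7b/c knockout, 7.786 and 8.035 CPM in inducible LIN28B with vavcre, 4.479 and 4.982 CPM in inducible LIN28B without it, and 6.811, 6.237 and 7.105 CPM in wild type. The 3 labelled knockout libraries therefore stood above all others with no overlap, and the lowest of all was the let-7 library from the same organ. Wild-type fetal liver, the organ that holds hepatocytes, lay below wild-type marrow in each library, but this order depended on Afp. Without Afp the sum averaged 1.954 CPM in wild-type fetal liver (1.564 to 2.184 CPM). In wild-type marrow it then averaged 1.259 CPM (0.5728 to 1.948 CPM), so the ranges overlapped. Bulk RNA does not show which cells the reads came from, and more liver cells and more RNA per liver cell cannot be told apart in it.

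**Figure D1:**
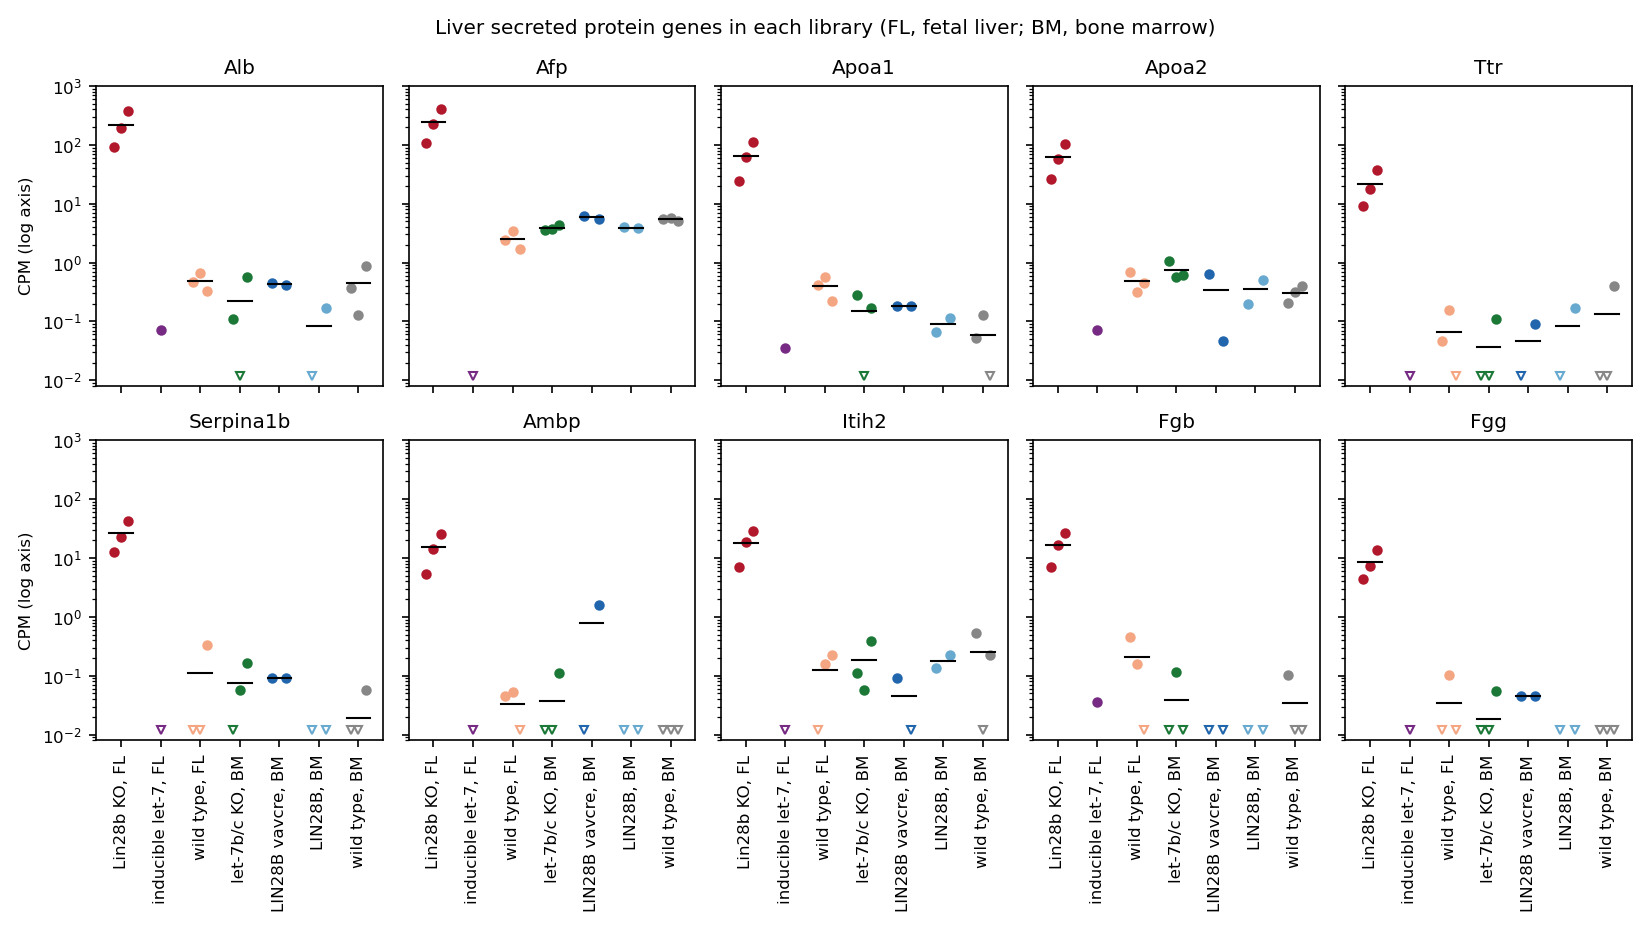
CPM (log axis) of the 10 genes in each of the 17 libraries, by group; points are libraries, horizontal bars are group means (n of 2 or 3) and open triangles mark libraries with 0 counts. The 3 labelled Lin28b knockout libraries lie above all others for every gene, and Afp is the gene present at 1.732 CPM or more in every other library but that of inducible let-7.

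The first comparison asked whether these messages differed between the labelled Lin28b knockout and wild-type fetal liver. All 10 were higher in the labelled knockout. They had a median log2 fold change of 7.70, against 0.00 over all 13558 genes tested, and no library of one group overlapped the other for any of the 10. Over all genes, 20.8% were called higher and 23.0% lower in this comparison (edgeR quasi-likelihood test, Benjamini-Hochberg adjusted p under 0.05), and 23.3% had every labelled knockout library above every wild-type one. All 10 passed the filter on low counts, but only 5 of them (Alb, Afp, Apoa1, Apoa2 and Ambp) passed it without the labelled knockout libraries, so Ttr, Serpina1b, Itih2, Fgb and Fgg entered the test through the group in which they were high. Folds are fitted ratios with TMM scaling, whose factor was 0.833 to 0.873 in these libraries and 0.966 to 1.012 in wild-type fetal liver, and so differ somewhat from plain CPM ratios.

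The albumin family came first in level. Alb (NM_009654, chromosome 5, 90460870 to 90476602 in GRCm38) had 92.06, 191.5 and 376.8 CPM in labelled knockout libraries 3, 6 and 8, against 0.4593, 0.6761 and 0.3352 CPM in wild-type libraries 1, 4 and 5. Alb was thus 504-fold higher (log2 8.98, SE 0.633, edgeR adjusted p = 1.77e-08), with 14418 counts in the labelled knockout against 29 in wild type. Afp (NM_007423, chromosome 5, 90490714 to 90508907) had 108.5, 228.4 and 403.1 CPM in the labelled knockout, against 2.388, 3.381 and 1.732 CPM in wild-type fetal liver. Afp was 112-fold higher (log2 6.81, SE 0.408, edgeR adjusted p = 3.02e-09). Its level in wild-type fetal liver was higher than that of Alb, with 148 counts of Afp and 29 of Alb over the 3 libraries.

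The apolipoproteins of high-density lipoprotein followed. Apoa1, its main protein and a cofactor of cholesterol esterification (NM_009692, chromosome 9, 46228630 to 46230469), had 24.64, 62.17 and 110.4 CPM in the labelled knockout, against 0.4134, 0.5721 and 0.2235 CPM in wild type. It was 182-fold higher (log2 7.51, SE 0.606, edgeR adjusted p = 8.03e-08). Apoa2 (NM_013474, chromosome 1, 171221564 to 171226379) had 26.17, 56.69 and 104.1 CPM in the labelled knockout, against 0.689, 0.3121 and 0.4469 CPM in wild type, and was 144-fold higher (log2 7.17, SE 0.622, edgeR adjusted p = 1.77e-07). Within the labelled knockout, both genes stood in the same order of libraries as albumin.

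The carrier protein and protease inhibitor genes behaved alike at lower levels. Ttr, which carries thyroid hormone and the retinol-binding protein (NM_013697, chromosome 18, 20664209 to 20674326), had 9.03, 17.46 and 37.43 CPM in the labelled knockout, against 0.04593, 0.156 and 0 CPM in wild type; it was 328-fold higher (SE of log2 1.11, edgeR adjusted p = 1.69e-05). Serpina1b, an alpha-1-antitrypsin, which inhibits neutrophil elastase (NM_009244, chromosome 12, 103728156 to 103738189), had 12.8, 22.99 and 42.74 CPM in the labelled knockout, against 0, 0 and 0.3352 CPM in wild type, and was 271-fold higher (SE of log2 0.893, edgeR adjusted p = 4.16e-06). The mouse has several near-identical copies of this gene, so how reads were divided between Serpina1b and its copies is uncertain. Ambp, the precursor of alpha-1-microglobulin and bikunin (NM_007443, chromosome 4, 63143275 to 63154172), had 122, 283 and 590 counts in the labelled knockout, against 1, 1 and 0 in wild type. That is a CPM ratio of 450.1 (95% counting interval 124.3 to 3722; edgeR adjusted p = 0.000223). Itih2, a heavy chain that is linked to bikunin in plasma (NM_010582, chromosome 2, 10094591 to 10130683), had 6.97, 18.54 and 28.99 CPM in the labelled knockout, against 0, 0.156 and 0.2235 CPM in wild type, 162-fold higher (SE of log2 0.977, edgeR adjusted p = 1.81e-05).

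The fibrinogen chains, which form the clot, closed the list. Fgb (NM_181849, chromosome 3, 83042246 to 83049863) had 7.014, 16.69 and 26.93 CPM in the labelled knockout, against 0.4593, 0.156 and 0 CPM in wild type, and was 88.1-fold higher (SE of log2 0.916, edgeR adjusted p = 6.71e-05). Fgg (NM_133862, chromosome 3, 83007724 to 83015056) had 101, 144 and 306 counts in the labelled knockout, against 0, 2 and 0 in wild type, a CPM ratio of 249.2 (95% counting interval 68.67 to 2063; edgeR adjusted p = 2.09e-05). No molecular identifiers were used, so each counting interval and floor describes counting error alone.

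**Figure D2:**
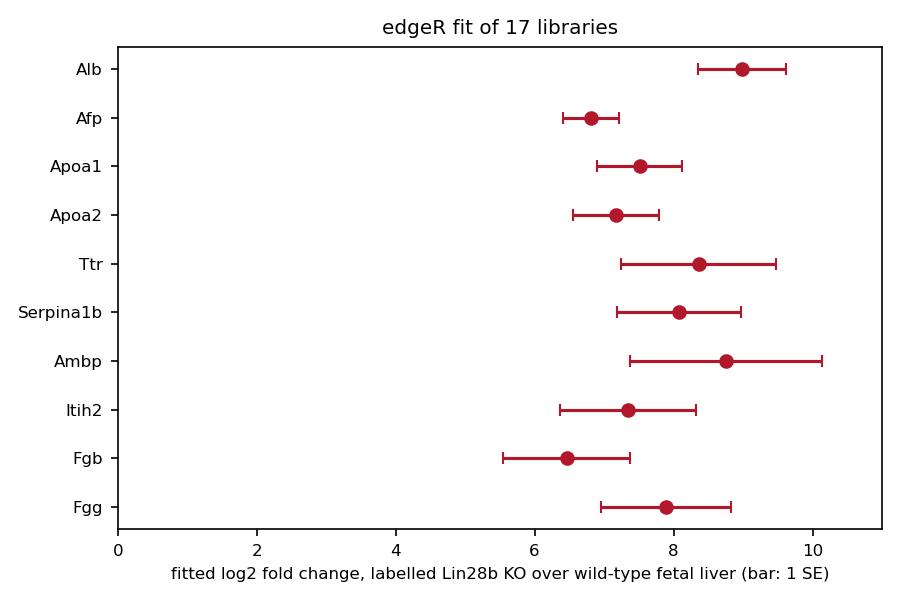
Fitted log2 fold change of the 10 genes in the libraries labelled Lin28b knockout over wild-type fetal liver, with bars of 1 SE from edgeR's fit of 17 libraries. All 10 lie between 6.46 (Fgb) and 8.98 (Alb), and the SE is widest for Ambp, which had 2 counts in wild type.

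Set per length of transcript, the order within the labelled knockout changed. Mean levels were 120.3 ± 75.8 CPM per kilobase for Apoa2, 119.6 ± 71.8 for Afp, 108.2 ± 71.1 for Alb and 63.5 ± 41.5 for Apoa1 (SD, n = 3). The spread between the libraries was far larger than the gaps between Apoa2, Afp and Alb. The others were lower, at 18.8 for Serpina1b, 17.97 for Ttr, 12.03 for Ambp, 5.86 for Itih2, 4.97 for Fgg and 4.43 for Fgb, all in CPM per kilobase. Fgb and Fgg, whose chains are joined in equal number in fibrinogen, differed by less per kilobase than the libraries did.

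Most of the spread within the labelled knockout was shared by all 10 genes. Each was lowest in library 3, intermediate in library 6 and highest in library 8. The ratio of library 8 to library 3 ran from 3.04 (Fgg) to 4.85 (Ambp), with a median of 4.04, and that of library 6 to library 3 from 1.67 to 2.71, with a median of 2.14. As shares of the sum, Alb made up 31.0%, 30.1% and 32.2% in libraries 3, 6 and 8, Afp 36.5%, 35.9% and 34.5%, and Apoa2 8.81%, 8.91% and 8.9%. The shares of Ambp and Fgg varied more for their size, at 1.8%, 2.28% and 2.22% for Ambp and 1.49%, 1.16% and 1.15% for Fgg. The make-up of the sum thus differed little between libraries whose sums differed several-fold.

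Most genes measured did not differ in this way. Over 8519 genes with at least 30 counts in the 3 libraries, the ratio of library 8 to library 3 had a median of 1.01, and 167 genes exceeded 2. Its median was 3.01 over 23 other secreted hepatocyte genes, 2.41 over 6 cell-bound hepatocyte genes and 2.09 over 10 stroma and endothelium genes. It was 1.23 over 11 tissue macrophage genes, 1.0 over 11 erythroid genes and 0.705 over 11 myeloid progenitor genes. Among the erythroid genes the embryonic globins Hbb-y and Hba-x, picked out after their values were seen, differed from the erythroid median. Their ratio of library 8 to library 3 was 3.46 and 3.01, and that of library 6 to library 3 was 1.65 and 1.59. For Hbb-bh1, another embryonic globin of the list, the same ratios were only 1.53 and 1.38. Stroma and endothelium genes had their highest sum in library 6, with 55.41, 160.6 and 122.8 CPM in libraries 3, 6 and 8.

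**Figure D3:**
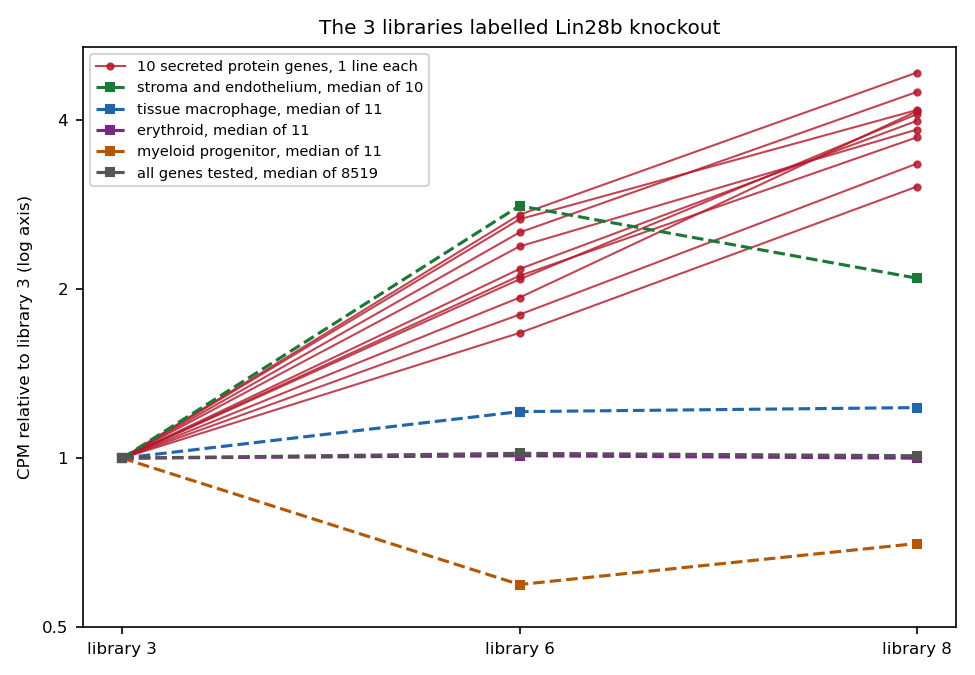
CPM relative to library 3 (log axis) in the 3 libraries labelled Lin28b knockout; red lines are the 10 secreted protein genes, dashed lines are medians of gene lists and of all genes with at least 30 counts. The red lines end between 3.04 and 4.85 in library 8, the stroma and endothelium median peaks in library 6, and the erythroid and all-gene medians stay near 1.

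Other genes of hepatocytes were read from 2 further lists. Of 40 other secreted hepatocyte genes, 25 passed the filter, and all 25 were higher in the labelled knockout, where 20.8% of all genes were called higher. Their median log2 fold change was 6.5 (6.29 with 6 genes at 0 in wild type set to their bound). Only 10 of these 25 passed the filter without the labelled knockout libraries, so the other 15 entered the test through the group in which they were high. Serpina6, the corticosteroid carrier, averaged 50.1 ± 32.0 CPM in the labelled knockout against 0.048 ± 0.0461 CPM in wild type, and Serpinf2, the plasmin inhibitor, 22.7 ± 14.2 CPM against 0.126 ± 0.133 CPM (SD, n = 3 each). Some genes of this list were expressed in every group. Trf, the iron carrier transferrin, averaged 162.0 CPM in the labelled knockout and 96.2 CPM in wild-type fetal liver, below the 358.6 CPM of wild-type marrow, and Hp, which binds free haemoglobin, averaged 121.1, 19.9 and 52.0 CPM in the same groups. The complement gene C3 averaged 118.6 CPM in the labelled knockout, against 2.15 CPM in wild-type fetal liver. The partner chain of fibrinogen, Fga, named after its values were seen, had 87 counts in the labelled knockout against 0 in wild-type fetal liver, and it has 2 transcripts in the files.

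Of 30 cell-bound hepatocyte genes, 20 were tested, of which 8 were higher and 3 lower in the labelled knockout, with a median log2 fold change of 2.88. The shares over all genes were 20.8% higher and 23.0% lower. Only 14 of these 20 passed the filter without the labelled knockout libraries, so the rest entered the test through that group. Fabp1, the fatty acid binder of liver, averaged 6.21 ± 3.2 CPM in the labelled knockout against 0.0372 ± 0.0645 CPM in wild type (SD, n = 3 each). Keratin genes parted: Krt8 averaged 8.64 CPM against 1.16 CPM in wild type (edgeR adjusted p = 0.000472), while Krt18 fell to 12.64 CPM, against 32.51 CPM in wild type (edgeR adjusted p = 0.000252). Fbp1, a gluconeogenic enzyme, was lower too, at 0.89 CPM against 2.47 CPM. Neither Krt18 nor Fbp1 was limited to fetal liver, and both were higher in marrow than in wild-type fetal liver. Marrow group means were 44.62 to 53.93 CPM for Krt18 and 11.33 to 20.61 CPM for Fbp1. Hnf4a, the nuclear receptor that sustains hepatocyte genes, was the other gene that was lower: 6.79 ± 5.17 CPM in the labelled knockout against 25.2 ± 1.23 CPM in wild-type fetal liver (SD, n = 3 each; log2 -1.70, SE 0.385, edgeR adjusted p = 0.00207). Hnf4a did not follow the 10 secreted protein genes across groups, with 9.85 CPM in the let-7b/c knockout, 34.0 CPM in inducible LIN28B with vavcre, 51.3 CPM without vavcre and 29.7 CPM in wild-type marrow. Within the labelled knockout, though, its ratio of library 8 to library 3 was 4.08.

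Of these 70 genes, 15 had 0 counts in the labelled knockout. Several transcripts are listed for 10 of the 15, among them Ahsg, Apoc1, Apoc3, Serpina1a, Foxa2 and Asgr1, so that ambiguous reads of these genes went uncounted. The other 5 have 1 transcript each: Apoa4, Serpina3k, and Tat, G6pc and Pck1, enzymes that liver cells raise around birth. These genes were picked out after their values were seen.

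Markers of other cell types were read in the same comparison, and their lists differed in how far and in which direction they moved. Over all genes tested, 20.8% were called higher and 23.0% lower. Of the genes tested, 11 of 12 erythroid, 10 of 12 tissue macrophage, 10 of 13 stroma and endothelium, 3 of 5 bile duct and epithelial and all 13 myeloid progenitor genes passed the filter without the labelled knockout libraries. All 12 erythroid genes were higher in the labelled knockout, with a summed level of 23260 to 27790 CPM against 321.1 to 487.2 CPM in wild-type fetal liver; Epb42, a protein of the red cell membrane skeleton, averaged 1009 CPM against 4.35 CPM. Of 12 tissue macrophage genes tested, 11 were higher and none lower (summed 747.9 to 930.4 CPM against 18.62 to 23.93 CPM), among them Slc40a1, the iron exporter, at 367.1 CPM against 9.96 CPM, Vcam1 at 58.6 CPM against 0.0492 CPM, and Cd5l at 55.9 CPM against 0.339 CPM; Cd163, with 2 transcripts in the files, was at 0 in the labelled knockout. Of 13 stroma and endothelium genes tested, 10 were higher and 1, Tie1, was lower. Their sum overlapped between groups, at 55.41 to 160.6 CPM in the labelled knockout and 40.74 to 60.84 CPM in wild type. Pecam1, Tek, Sparc and Pdgfrb were at 0 in all 17 libraries and Pdgfra in the labelled knockout, and each of these 5 genes has several transcripts in the files, whose shared reads went uncounted. Stab2, a scavenger receptor of liver sinusoids, averaged 16.0 CPM against 0.22 CPM, and the collagen gene Col3a1 19.4 CPM against 0.476 CPM. Of 5 bile duct and epithelial genes tested, Cdh1 was higher and none was lower (summed 4.91 to 15.93 CPM against 3.225 to 4.409 CPM). That 1 call in 5 is near the share of all genes called higher. Spp1, which has 5 transcripts in the files, was at 0 in the labelled knockout. Of 13 myeloid progenitor genes tested, 4 were higher and 6 lower (summed 3845 to 6575 CPM against 6258 to 7584 CPM): Gata2 averaged 35.7 CPM against 217.5 CPM and Flt3 32.3 CPM against 393.7 CPM, while Elane, the neutrophil elastase gene, averaged 481.5 CPM against 17.5 CPM. The part of each of these cell types in the level of the secreted protein genes was not tested.

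**Figure D4:**
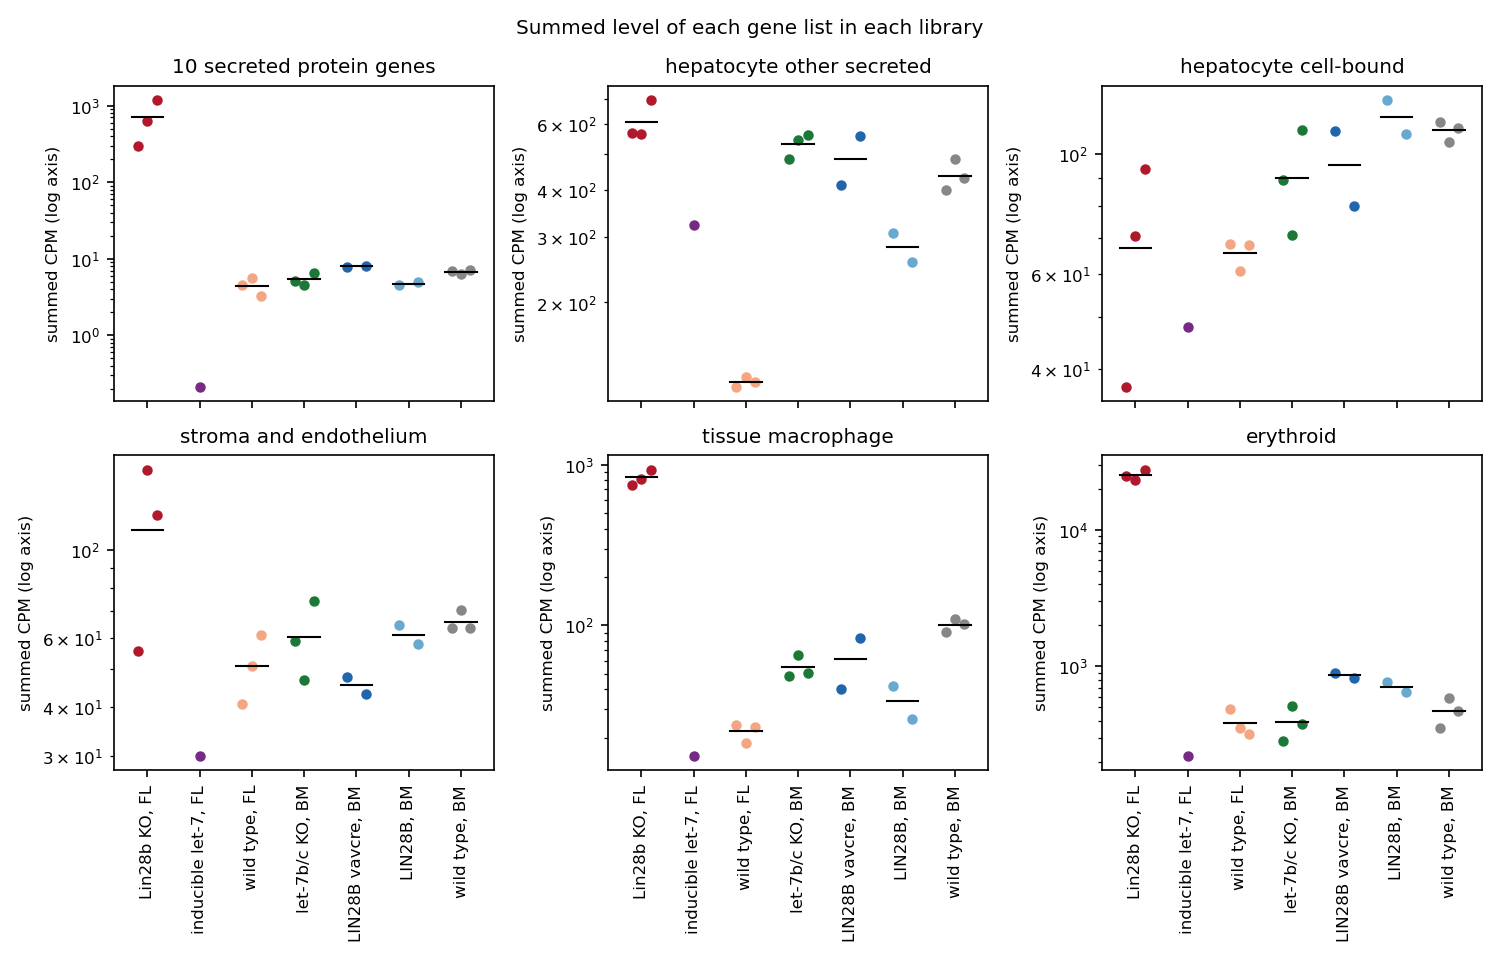
Summed CPM (log axis) of 6 gene lists in each library, by group; points are libraries and bars are group means. The 10 secreted protein genes, the tissue macrophage genes and the erythroid genes are far above the rest in all 3 labelled Lin28b knockout libraries. The other secreted hepatocyte genes are at 563.6 CPM or more there and reach 560.4 CPM in the let-7b/c knockout, and the sums of the cell-bound genes overlap between groups.

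Genes with the pattern most like that of the 10 were ranked by Pearson's r between their log2(CPM + 0.5) and the mean of the 10 over 17 libraries, among 12435 genes. The 12 highest, with r of 0.9922 to 0.9965, were Serpina1c, Meg3, Serpina1d, Serpina6, Serpinf2, Apoh, Igf2, Fabp1, Itih3, Lyve1, Ly6g6f and Smlr1. Of these, 8 were on the hepatocyte lists. Igf2, a fetal growth factor on the cell-bound list, and Meg3, an imprinted non-coding RNA, averaged 1.87 and 8.15 CPM in the labelled knockout, against 0.0186 and 0.0699 CPM in wild-type fetal liver. Lyve1, a receptor of sinusoidal and lymphatic endothelium, averaged 8.66 CPM against 0.0693 CPM. These values of r rest on the gap between the 3 labelled knockout libraries and the rest: over the other 14 libraries r was from -0.12 (Fabp1) to 0.60 (Serpina1d) for 11 of the 12, and Smlr1 was at 0 in all 14. Of the 10 genes themselves, set against the mean of the other 9, Afp had the lowest r, 0.9422, and Ambp the next, 0.9624.

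Afp differed from the other 9 outside the labelled knockout. It made up 52.5% to 91.0% of the summed counts in the 13 libraries other than the labelled knockout and the inducible let-7 library, against 34.5% to 36.5% in the labelled knockout. In marrow Afp had 3.571, 3.666 and 4.357 CPM in the let-7b/c knockout, 6.301 and 5.602 CPM in inducible LIN28B with vavcre, 4.078 and 3.793 CPM without vavcre, and 5.554, 5.664 and 5.157 CPM in wild type. All 10 marrow libraries were above the 3 wild-type fetal liver libraries. The order of group means was inducible LIN28B with vavcre, wild-type marrow, inducible LIN28B without vavcre, let-7b/c knockout, wild-type fetal liver and inducible let-7. The ranges of the first pair overlapped, as did those of the next pair. In the inducible let-7 library Afp had 0 counts, which allows up to 0.107 CPM (3 counts), at least 23.59-fold lower than the 2.513 CPM of the pooled wild-type fetal liver counts at that floor. Without Afp, the other 9 genes summed to 188.5 to 766.8 CPM in the labelled knockout and to 0.213 to 2.434 CPM in the other 14 libraries.

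**Figure D5:**
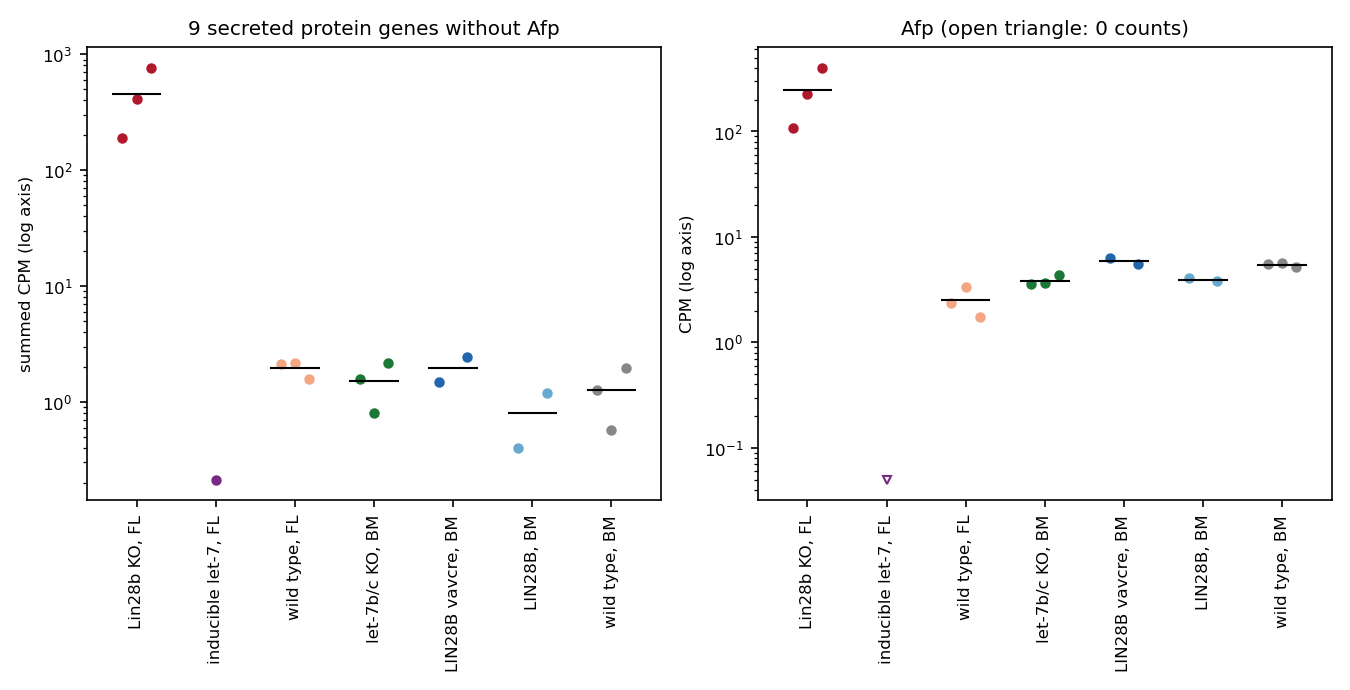
Left, summed CPM of the 9 genes without Afp; right, CPM of Afp (both log axes), in each library by group, with bars at group means and an open triangle for 0 counts. Without Afp all libraries outside the labelled knockout lie at or below 2.434 CPM, while Afp lies at 3.571 to 6.301 CPM in marrow and at 1.732 to 3.381 CPM in wild-type fetal liver.

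The second comparison set wild-type fetal liver against wild-type marrow, which differ in tissue and age together. None of the 10 genes was called in either direction by edgeR, whereas 13.9% of all genes were called higher and 13.2% lower. Unadjusted p was under 0.05 for 2 of them: Afp, at 2.5 ± 0.83 CPM in fetal liver against 5.46 ± 0.267 CPM in marrow (SD, n = 3 each; 2.01-fold lower, log2 -1.01, SE 0.386, edgeR adjusted p = 0.0672), and Apoa1, with 9, 11 and 4 counts in fetal liver against 1, 2 and 0 in marrow (log2 2.79, SE 1.04, edgeR adjusted p = 0.0602). Neither gene's libraries overlapped between groups, but the share of all genes without overlap was not counted for this comparison. DESeq2 called both, Afp lower (adjusted p = 0.0134) and Apoa1 higher (adjusted p = 0.0141); over all alternatives the adjusted p ran from 0.0134 to 0.213 for Afp and from 0.0141 to 0.162 for Apoa1. Alb had 10, 13 and 6 counts in fetal liver and 7, 2 and 15 in marrow, with overlapping levels and a CPM ratio of 1.072 (95% counting interval 0.6026 to 1.924). Over the 8 genes with more than 3 counts in either group the median log2 fold change was 0.48, against -0.08 over all genes.

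The third comparison was of let-7b/c knockout with wild-type marrow; let-7 is the microRNA family that LIN28B blocks. None of the 10 was called, where 1.33% of all genes were called higher and 0.922% lower. No unadjusted edgeR p was under 0.05, and DESeq2 called none. Afp averaged 3.87 ± 0.429 CPM in the knockout and 5.46 ± 0.267 CPM in wild type (SD, n = 3 each; log2 -0.47, SE 0.373, edgeR adjusted p = 0.633). Apoa2 had 19, 10 and 11 counts in the knockout and 4, 5 and 7 in wild type (log2 1.30, SE 0.731, edgeR adjusted p = 0.445). The other 8 had 12 counts or fewer each over the 3 knockout libraries. Over the 7 genes with more than 3 counts in either group the median log2 fold change was -0.45, against 0.00 over all genes, and the strains of the groups differ.

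LIN28B induction was compared as the mean of its lines with wild-type marrow. None of the 10 was called, with no unadjusted edgeR p under 0.05 and no DESeq2 call, where 6.59% of all genes were called higher and 7.86% lower. Afp averaged 5.95 ± 0.494 CPM with vavcre and 3.94 ± 0.201 CPM without it (SD, n = 2 each), against 5.46 ± 0.267 CPM in wild type (SD, n = 3; log2 of the mean of lines -0.19, SE 0.341, edgeR adjusted p = 0.766). Over the 2 lines, the median log2 fold change of the 8 genes with more than 3 counts in either group was -0.11, against -0.07 over all genes. Between the lines, vavcre against no vavcre, none of the 10 was called, against 9.37% of all genes higher and 11.3% lower. Afp had a log2 fold change of 0.60 between the lines (SE 0.45, edgeR adjusted p = 0.38). Over the 7 genes with more than 3 counts in either line the median log2 fold change was 0.60, against -0.01 over all genes. DESeq2 called none, and 1 gene, Ambp, had an unadjusted edgeR p under 0.05 (adjusted p = 0.0687).

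Ambp stood out in 1 marrow library. It had 34 counts in inducible LIN28B with vavcre library 6, or 1.561 CPM, against 0 in vavcre library 4, in both libraries without vavcre and in all 3 of wild-type marrow. In that library the other genes were near the level of the rest, with 9 counts of Alb, 4 of Apoa1, 1 of Apoa2 and 0 of Itih2, so that Itih2, whose product binds bikunin, was not raised with it. Over the alternatives the adjusted p of Ambp between the lines ran from 0.00708, without vavcre library 4, to 1, and the call then rests on library 6 alone.

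With a single library, inducible let-7 was given no test. It held 2 counts of Alb, 1 of Apoa1, 2 of Apoa2 and 1 of Fgb, and 0 of Afp, Ttr, Serpina1b, Ambp, Itih2 and Fgg. Alb was at 0.071 CPM (95% counting interval 0.0086 to 0.257), against 0.335 to 0.676 CPM in the 3 wild-type fetal liver libraries. The sums of the erythroid and tissue macrophage genes were also at their lowest there. They were 220.4 and 15.41 CPM, against 321.1 to 487.2 and 18.62 to 23.93 CPM in wild-type fetal liver, and Hnf4a had 0 counts. Not every gene of these lists was lower. Slc40a1 was at 15.16 CPM, against 7.766 to 14.15 CPM in wild-type fetal liver, and the erythroid gene Rhag at 21.62 CPM, against 5.866 to 14.65 CPM. How far the low number of genes detected in this library bears on these values was not tested.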

How the data were processed

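RNA of sorted common myeloid progenitors was deposited as raw counts per RefSeq transcript, 1 table for each of 17 libraries. The submitters' processing notes name HTSeq, cutadapt, TopHat2 and mm10; their versions and the strand setting were not found in the labels or files. Counts were summed per gene (33818 accessions, 24416 genes); ambiguous reads (23.82% to 29.77%) and reads outside transcripts (8.87% to 19.34%) stayed out of library sizes. CPM are counts over these totals of 14957111 to 28165554, with exact Poisson intervals at 95% and a floor of 3 counts. edgeR 4.0.16 (quasi-likelihood, TMM, filterByExpr, 13558 genes, 7 group means, 10 residual degrees of freedom; R 4.3.3) gave log2 fold changes and adjusted p-values, called under 0.05, after a check on simulated counts. DESeq2 1.42.0, other scalings, filters, single-transcript genes and leaving out each library were alternatives. Python 3.11.15 did the rest. The genes, lists and comparisons were chosen with earlier results of these data known. Genes were named by rule: the 10 in full, the 12 most alike, and the highest up to 6 tested genes of each list, plus those said to be picked after their values were seen. Promoters came from RefSeq (GRCm38.p6). Positions are those of GRCm38. Some genes that the rule names are not reported here.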

Additional observations from a re-analysis of the deposited data

How the results depend on the processing

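The 10 genes stayed higher in the labelled Lin28b knockout than in wild-type fetal liver, past the threshold, under all 13 alternatives. These included leaving out each library of the comparison. The adjusted p was at most 0.00328 (Ambp, DESeq2) and the lowest fitted fold was 61.2. Ttr, Serpina1b, Itih2, Fgb and Fgg passed the main filter only with the labelled knockout libraries, which every alternative still held in part or whole. Between wild-type fetal liver and wild-type marrow, where edgeR called 0 of the 10, DESeq2 and no filter on low counts each called 1 higher (Apoa1), and DESeq2, no scaling factor, no filter, and a fit of only the groups compared each called 1 lower (Afp, the only one of the 10 tested in that last fit); leaving out single libraries gave 0. Between the lines with and without vavcre, no filter called 1 higher (Ambp), and leaving out single libraries gave 0 to 1. The let-7b/c knockout and the mean of the LIN28B lines gave 0 throughout. With TMM library sizes the summed level in inducible LIN28B with vavcre moved to 7.341 CPM. Counts over all genes moved by more than 1.5 times for the let-7b/c knockout (180 higher and 125 lower; 466 and 317 by DESeq2; as few as 64 and 32 without wild-type marrow library 2), for the LIN28B lines (893 higher and 1065 lower; 562 and 570 with only the groups compared, 537 and 558 without wild-type marrow library 2) and between the lines (1270 higher and 1529 lower; 220 and 202 with only the groups compared, 604 and 772 without the no-vavcre library 5). The cause was not tested. The fit without the inducible let-7 library was added after seeing the data. Replicate numbers 5 and 6 recur between the LIN28B lines and wild-type marrow, and no other comparison shares more than 1 number. Deviations of same-numbered libraries from their group means correlated at -0.04 and 0.03 across genes, and the labels tie no number to an animal or day. With the replicate block, added after seeing the data, 0 of the 10 genes were called in either direction for the LIN28B lines, and 142 genes were higher and 132 lower over all genes, with 4 residual degrees of freedom. In every group but the labelled knockout, genes other than Afp rest on 0 to 34 counts per library.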

Other observations

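Outside the 3 labelled knockout libraries, the genes whose pattern was most like that of Afp alone were on none of the hepatocyte lists. The highest over 14 libraries, a ranking added after seeing the data, were Galnt11, which adds sugars to proteins, AW554918 and Gclc, a subunit of the first enzyme of glutathione synthesis, with r of 0.98, 0.97 and 0.97. Without the inducible let-7 library, which was lowest for all of them, r was 0.91, 0.88 and 0.86 over 13 libraries. Galnt11 was at 10.3 CPM in the inducible let-7 library and averaged 35.2 CPM in wild-type fetal liver, 48.1 CPM in the let-7b/c knockout, 56.5 CPM in inducible LIN28B with vavcre, 44.4 CPM without vavcre and 49.7 CPM in wild-type marrow. In the labelled knockout, where Afp was highest, Galnt11 averaged 6.23 CPM (5.65 to 6.94 CPM).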
